A study of Mus musculus with 18 samples.

Results

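The comparison described here sets 3 livers of C57BL/6J mouse pups given a miR-497a-5p mimic against 3 livers of pups given a scrambled mimic, all harvested on postnatal day 7 (P7). Members were chosen by sample label alone, which took 6 of the 18 liver libraries of the study; the other 12 are mimic and scrambled livers of P5 and P14, with 3 in each group. Both mimics were chemically stabilised oligonucleotides injected into the peritoneum on P1 (the birth day) and P3, so the P7 livers were taken 4 days after the second injection. Doses of 100 and 10 mg per kg are described for the injections, with 6 pups in each group, and pups were redistributed among nursing dams into litters of equal size. The labels of the single libraries repeat neither the dose nor the litter or sex of the pup. The p-values therefore measure only the spread between livers of a group, which the main fit estimates over all 18 libraries. Messenger RNA was sequenced from total RNA of a small cube of liver with a stranded library kit. Values are whole-number gene counts that the authors divided by a size factor for each library; they are called scaled counts. The question put to these libraries by the study's design is what delivery of miR-497a-5p does to candidate target messenger RNAs.

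MicroRNAs guide Argonaute proteins to messenger RNAs that pair with the seed, the bases near the 5′ end of the microRNA, and such pairing usually lowers the level or the translation of the target. miR-497a belongs to the miR-15 family, whose members share one seed and are known for targeting cyclins, cell cycle kinases and the survival gene Bcl2. At this age the liver is still a blood-forming organ, its hepatocytes are dividing, and enzymes of amino acid, retinoid and drug metabolism are being switched on. In bulk tissue, fewer cells of a type and less RNA in each cell cannot be told apart.

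The mature sequences are shown because the delivered mimic and its endogenous relatives read the same sites. They come from RefSeq (GRCm38.p6), 5′ to 3′, with bases 2 to 8, the seed, in capitals. miR-497a-5p lies at chr11:70234730-70234751 on the plus strand, with miR-195a-5p downstream of it at chr11:70235062-70235082.
mmu-miR-497a-5p: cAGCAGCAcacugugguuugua
mmu-miR-195a-5p: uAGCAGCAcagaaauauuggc
mmu-miR-16-5p: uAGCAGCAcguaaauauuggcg
mmu-miR-15a-5p: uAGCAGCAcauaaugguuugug
mmu-miR-15b-5p: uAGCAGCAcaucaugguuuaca
mmu-miR-322-5p: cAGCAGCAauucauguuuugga

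The seed pairs with the 7-mer TGCTGCT. Sites in 3′ untranslated regions of 6 targets of the family named in earlier work are shown because the seed of the mimic could pair there. Whether these sites are in use in these livers was not tested. Each is read from the GRCm38 genome in the sense of the gene, with the 7-mer in capitals, and in each the base after it is an A (the 8-mer form of the site).
Ccne1, chr7:38098018-38098043, minus strand: cttattttgtaagTGCTGCTatgtct
Wee1, chr7:110142655-110142680, plus strand: tgccttgtgaattTGCTGCTatttta
Ccnd2, chr6:127128536-127128561, minus strand: atgtttcacggtgTGCTGCTatttta
Cdk6, chr5:3524532-3524557, plus strand: aagttgcacagggTGCTGCTatctca
Chek1, chr9:36710285-36710310, minus strand: ctggtgaatagagTGCTGCTatgtga
Bcl2, chr1:106540793-106540818, minus strand: ataagaaaccctgTGCTGCTatcctg

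The 6 libraries summed to between 4065785 and 4239702 scaled counts, and the reads behind them are not used here. Albumin (Alb), the main plasma protein of hepatocytes, was at 1794, 1752 and 2192 in scrambled and at 1826, 2219 and 1672 in mimic livers, and its fetal relative Afp at 1768, 1725 and 2191 against 1748, 2091 and 1608; both overlapped. Of the 29 genes listed for hepatocyte identity, 28 were tested, 13 positive and 15 negative, with a median log2 difference of -0.0023. In 0 of them all 3 mimic livers lay above all 3 scrambled livers, and in 2 (7.14%) all 3 lay below. Over all genes tested these shares were 6.52% and 7.44%. The 10 genes with the highest scaled counts per kb of exon, among genes of at least 0.5 kb, all lay between 722 and 825 per kb, with Alb at 815, so the most abundant liver transcripts occupied a narrow range of levels; whether this compressed their differences was not tested. Summed Y-linked values were 1572 to 1679 in mimic replicates 1 and 2 and scrambled replicate 2, and 27 to 133 in the other 3 libraries. The rank correlation across genes between exonic length and a library's deviation from the gene mean was 0.43, 0.05 and 0.43 in mimic livers and 0.11, 0.40 and 0.19 in scrambled livers, which is a trend shared by libraries of both groups.

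The scrambled libraries stood apart in 2 further ways that bear on the values below. First, 8684 genes that were silent at P5 and P14 (a mean under 0.2) carried 0.0669, 0.154 and 2.87 scaled counts per kb of exon in P7 scrambled replicates 1, 2 and 3, against 0.0178 to 0.0264 in the P7 mimic livers. Multiplied by exonic length, this background reached 50% or more of the value in scrambled replicate 3 for 914 of the 14104 genes tested (6.48%) and in scrambled replicate 2 for 13 genes. Its median share was 6.54% in replicate 3. Second, skeletal muscle transcripts were present, above all in scrambled replicate 1. Of 35 listed muscle genes 17 were tested, and these summed to 3108, 250 and 760 in scrambled and to 221, 261 and 253 in mimic livers. The sum of scrambled replicate 3 thus also lay above every mimic sum. In that library Tnnt3 was at 38 and Atp2a1 at 35, above predicted backgrounds of 4.5 and 10.0, while Myh8, Myh1 and Ckm lay below theirs. Genes were tested by their mean over all 18 libraries, so a muscle gene could enter because its scrambled values were high. Myh8, for instance, was at 344, 1 and 15 against 0, 0 and 0. The sums may therefore be partly shaped by that filter. Skeletal actin (Acta1) was at 436, 1 and 6 against 0, 1 and 1, and muscle creatine kinase (Ckm) at 252, 2 and 6 against 1, 1 and 0. In 15 genes scrambled replicate 1 was at 3 times or more the highest of the other 17 libraries. Of these, 10 are on the muscle list and the others are Alox15, Ankrd55, Clec4d, Dpep2 and the muscle calsequestrin Casq2. Alox15, a lipoxygenase of eosinophils and resident peritoneal macrophages, was at 478, 9 and 11 against 8, 2 and 0. The predicted genes Gm10800 and Gm10801 were instead at 0, 310 and 669 and at 0, 98 and 412 in scrambled livers, and at 0 in all 3 mimic livers.

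**Figure D1:**
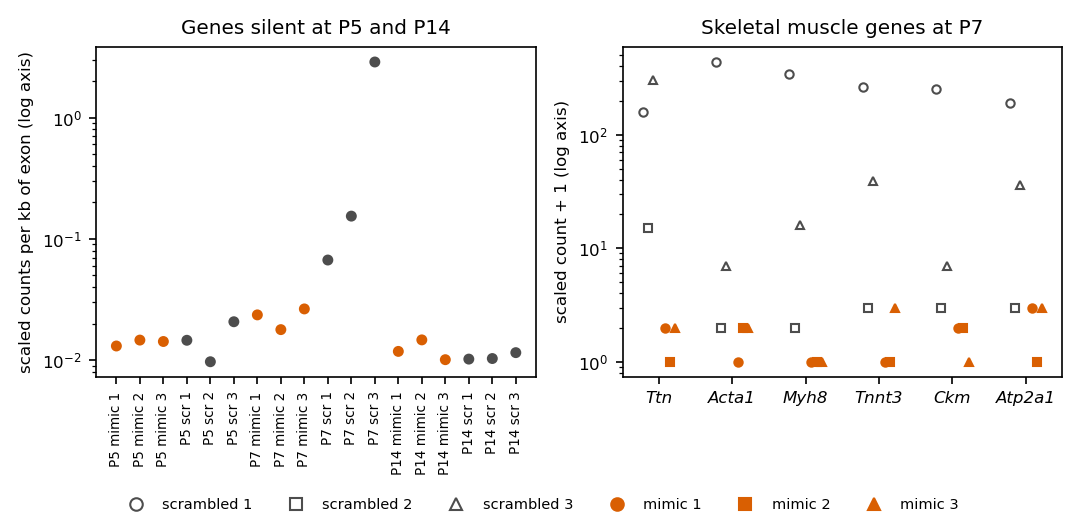
Left, scaled counts per kb of exon (log axis) over the genes silent at P5 and P14, 1 point for each of the 18 libraries; P7 scrambled replicate 3 stands at 2.87 and replicate 2 at 0.154, above all P5 and P14 livers. Right, scaled counts plus 1 (log axis) of 6 skeletal muscle genes in the 6 P7 livers; scrambled replicate 1 is highest in 5 of them and scrambled replicate 3 in Ttn.

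At P7 a single transcript differed between mimic and scrambled livers past the threshold, and it was a muscle gene of the scrambled libraries. Of 14104 genes, 1 was called (0.00709%), at an adjusted p of 0.05 in limma with Benjamini-Hochberg adjustment; it was lower in mimic livers, and 1073 genes (7.61%) had an unadjusted p under 0.05. Titin (Ttn, chr2:76703980-76982547, minus strand), the giant spring protein of the sarcomere, was at 159, 14 and 301 in scrambled and at 1, 0 and 1 in mimic livers. The groups did not overlap, and Ttn fell by 5.82 on the log2(scaled count + 1) scale (SE 0.85, limma adjusted p 0.0248). With 116.8 kb of exon, its predicted silent-gene background was 18 in scrambled replicate 2 and 336 in replicate 3, above the values found there. With the background removed from all libraries its log2 difference was -2.42 (limma adjusted p 0.701), and without scrambled replicate 3 it was -4.95 (limma adjusted p 0.244). Leaving out any 1 mimic liver also ended the call, with log2 differences of -5.99 to -5.49 and limma adjusted p of 0.127 to 0.158. The call was kept without scrambled replicate 1 (-5.41, limma adjusted p 0.0313) and without scrambled replicate 2 (-7.11, limma adjusted p 8.27e-05).

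Below the threshold, 919 genes (6.52%) had all 3 mimic livers above all 3 scrambled livers and 1050 (7.44%) had all 3 below. With the silent-gene background removed the counts were 1198 higher (8.49%) and 670 lower (4.75%). At P5 the same counts were 407 higher (2.89%) and 299 lower (2.12%), and at P14 700 (4.96%) and 613 (4.35%). Of the 1050 lower P7 genes, 67 had a background of 50% or more of their value in scrambled replicate 3, as did 54 of the 919 higher ones. Over all genes tested that share was 6.48%, so neither set is marked out by its background. The trace of scrambled replicate 1 was carried by 4 of the lower genes, of 15 such genes among all tested. The median SE of a log2 difference was 0.15. Leaving out scrambled replicate 1 gave 13 called genes and leaving out scrambled replicate 2 gave 9. Among the 13 were 6 predicted genes that, among the P7 livers, were above 0 only in scrambled replicates 2 and 3, and among the 9 were the muscle genes Atp2a1, Myh8, Tnnt3 and Ttn. With limma's library weights, which gave P7 mimic replicate 1 a weight of 2.94, the highest of the 6, and the scrambled livers 0.745 to 0.986, 63 genes were called (0.447%), 36 higher and 27 lower; Rdh16, Proser2, Gpt, Stat5b and Slco1a4 were among the higher and Retsat, Aqp3 and Hamp among the lower.

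The 12 genes of smallest p in each direction were taken from genes whose groups did not overlap, so that their groups are apart follows from the choice. They included 2 enzymes that act on retinol, the alcohol form of vitamin A. Retinol saturase (Retsat, chr6:72598475-72608425, plus strand), which reduces retinol, was at 817, 795 and 754 in scrambled and at 512, 532 and 509 in mimic livers. Values were tight within each group, and the gap was -0.61 on the log2 scale (SE 0.10; adjusted p 0.0759 in limma), and background made up 1.35% of its value in scrambled replicate 3. Rdh16 (chr10:127801154-127815839, plus strand), a retinol dehydrogenase of a family of close gene copies among which reads may be divided, was at 176, 167 and 169 against 371, 265 and 304. The mimic livers were spread more than the scrambled ones, and the gap was 0.86 in log2 (SE 0.16; adjusted p 0.150 in limma). On the other days the differences were smaller in size: Retsat differed by 0.02 at P5 and -0.16 at P14, and Rdh16 by -0.01 and -0.33. Of the 47 genes listed for retinoid metabolism, 43 were tested; 7 were apart and higher and 1, Retsat, was apart and lower, against 6.52% and 7.44% of all genes, with a median of 0.06. The higher ones included the alcohol dehydrogenase Adh4 (66, 41 and 41 against 79, 73 and 67) and the retinol-binding protein receptor Stra6l (800, 838 and 744 against 983, 1027 and 974).

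Proser2 (chr2:6097607-6130211, minus strand) was at 105, 126 and 98 in scrambled and at 195, 194 and 181 in mimic livers, with the smallest p of the higher genes (0.79 in log2, SE 0.14; adjusted p 0.0961 in limma). The 3 mimic livers were nearly equal, and background was 28.0% of the value in scrambled replicate 3. Slc6a4, the serotonin transporter with which platelets load serotonin, was at 44, 46 and 46 against 97, 80 and 121. Arntl, the clock factor BMAL1, was at 133, 231 and 165 against 280, 259 and 312, and the galactosyltransferase B3galt1 at 248, 208 and 138 against 490, 488 and 415. Scrambled values were nearly equal in Slc6a4 and spread more widely in Arntl and B3galt1. The other higher genes of the 12 were Lgalsl, Dync2li1, Gpt, Nat8f4, Rab27b, Cdcp1 and Macrod1, with limma adjusted p from 0.0961 to 0.272 over the 12. No higher gene of the 12 had a background of 50% in scrambled replicate 3 or the trace of replicate 1. Their differences had the same sign in 6 of 12 at P5 and in 6 of 12 at P14.

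Among the 12 lower genes, several low ones carried the library traces. Hmcn2, a long extracellular matrix gene, was at 29, 13 and 62 against 3, 5 and 3, and its background share in scrambled replicate 3 was 74.5%. Ankrd55 was at 177, 17 and 34 against 7, 8 and 7 and belongs to the trace of scrambled replicate 1. Counting Ttn, 3 of the 12 had a background of 50% or more, against 6.48% of all genes tested. Others of the 12 had smaller shares: the water and glycerol channel Aqp3 was at 44, 20 and 48 against 7, 6 and 4 with 10.9%, and the galectin Lgals2 at 37, 36 and 74 against 16, 8 and 14 with 2.30%. Both genes are low in all 6 livers. The plasma glutathione peroxidase Gpx3 was at 258, 260 and 234 against 162, 162 and 196, and Gatm, the first enzyme of creatine synthesis, at 500, 534 and 547 against 410, 436 and 395. These better expressed genes had smaller log2 differences, of -0.53 (SE 0.12) and -0.35 (SE 0.08) and limma adjusted p of 0.272 for both. The inducible heat shock gene Hspa1b was at 26, 36 and 41 against 8, 12 and 16; it has a near-identical copy, so its reads are uncertain.

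**Figure D2:**
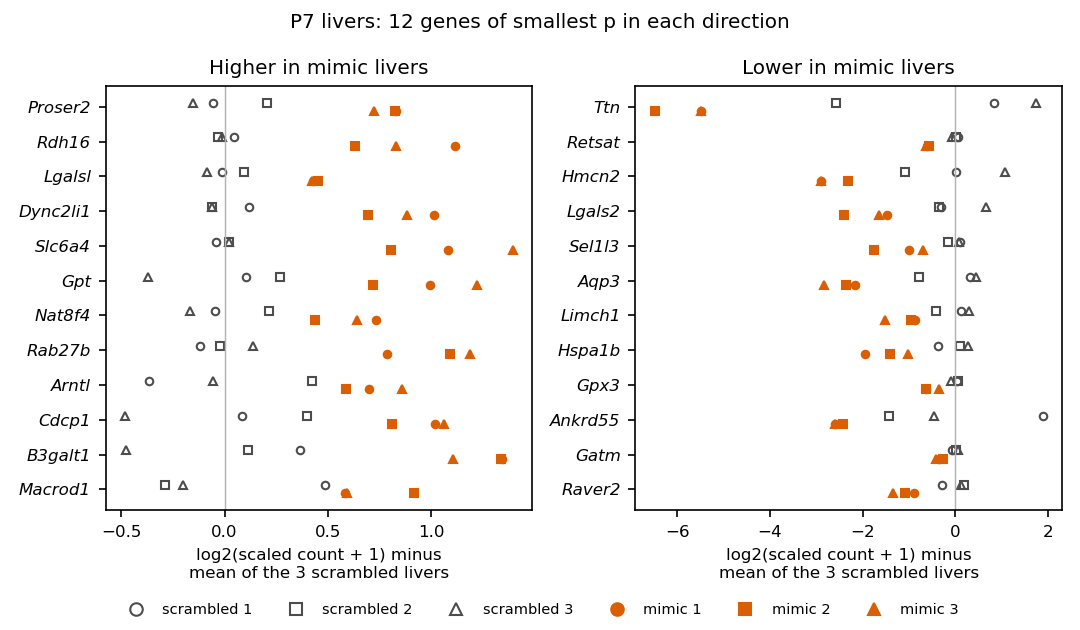
The 12 genes of smallest p in each direction; the x axis is log2(scaled count + 1) minus the mean of the 3 scrambled livers, open grey symbols are scrambled and filled orange symbols mimic livers 1 to 3. Genes were taken only where the groups do not overlap, so the gap between the symbols is part of the choice; scrambled replicates 1 and 3 stand right of replicate 2 in Ttn, Hmcn2 and Ankrd55.

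Transcripts of platelets and megakaryocytes, the marrow and liver cells that shed platelets, were higher in mimic livers. All 26 listed genes were tested, 24 had a positive difference, 21 (80.8%) were apart and higher against 6.52% of all genes, and 0 were called. The median log2 difference was 0.78, against -0.0046 over all genes. Summed over the list, scrambled livers had 5204, 4520 and 4902 and mimic livers 6660, 7415 and 7745. The lowest mimic sum thus lay above the highest scrambled sum, and the median was 0.82, 0.71 and 0.75 without scrambled replicates 1, 2 and 3 in turn. With the background removed 21 genes were again apart and higher. The list was known to lean this way when it was chosen, so the count describes these libraries and is no independent evidence.

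Receptors, granule genes and the platelet skeleton were all among the genes apart. Itga2b and Itgb3, the 2 chains of the platelet fibrinogen receptor, were at 367, 358 and 358 against 570, 634 and 605 and at 521, 503 and 594 against 762, 896 and 936. Tubb1, the tubulin of the platelet's marginal band, was at 103, 110 and 101 against 215, 234 and 249. Treml1, a receptor stored in platelet granules, was at 77, 75 and 75 against 135, 168 and 181. Scrambled livers were almost equal in Itga2b, Tubb1 and Treml1, and mimic replicate 1 was the lowest mimic liver in Itgb3, Itga2b, Tubb1 and Treml1. Rab27b, which directs granule secretion, was at 102, 109 and 122 against 192, 237 and 254. The collagen receptor Gp6, chosen after its values were seen, had the largest difference of the list, at 34, 52 and 47 against 93, 121 and 131 (log2 difference 1.36).

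In the fit of all 18 libraries none of them passed, with limma adjusted p of 0.272 for Rab27b, 0.330 for Itgb3, 0.333 for Itga2b, 0.352 for Treml1 and 0.653 for Tubb1. In the fit of the 6 P7 libraries alone 7 genes were called (0.0496%), with limma adjusted p of 0.0115 for Tubb1, 0.0202 for Itga2b and 0.0468 for Treml1 and Rab27b. The other 3 were the organic anion transporter Slc22a7 (201, 190 and 203 against 397, 412 and 445), the P450 Cyp4f14 (223, 284 and 223 against 451, 539 and 445) and Retsat. The 5 listed genes that overlapped were Pf4, Selp, Clec1b, P2ry12 and Gfi1b, named after their values were seen. Platelet factor 4 (Pf4) was at 172, 105 and 160 against 160, 187 and 173. P-selectin (Selp), shared by platelets and activated endothelium, was at 265, 61 and 74 against 97, 112 and 117, so scrambled replicate 1 alone was high. The list's median was 0.06 at P5 and 0.20 at P14.

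Genes of the sinusoidal endothelium, the fenestrated lining of the liver's capillaries, were slightly lower. All 27 were tested, 26 had a negative difference, 13 (48.1%) were apart and lower against 7.44% of all genes, and 0 were called. The 1 positive gene was Flt1, by 0.01. Sums were 16723, 14937 and 16027 in scrambled and 14132, 14402 and 12989 in mimic livers, a gap smaller than the spread among scrambled livers. The median was -0.23, and -0.16, -0.28 and -0.23 without scrambled replicates 1, 2 and 3 in turn. With the background removed 13 were again apart and lower. The hyaluronan and lipoprotein scavenger Stab1 was at 1003, 926 and 911 against 782, 802 and 759, and the angiopoietin receptor Tek at 445, 426 and 456 against 392, 327 and 351. The orphan receptor Gpr182 was at 766, 632 and 721 against 599, 616 and 493. Differences of these abundant genes were small, from -0.28 to -0.31, with all mimic livers below all scrambled ones. The zonation signal Wnt9b of the central vein was at 41, 22 and 30 against 14, 7 and 13, and background was 43.3% of its value in scrambled replicate 3. At P5 and P14 the list's median was -0.01 and -0.05.

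**Figure D3:**
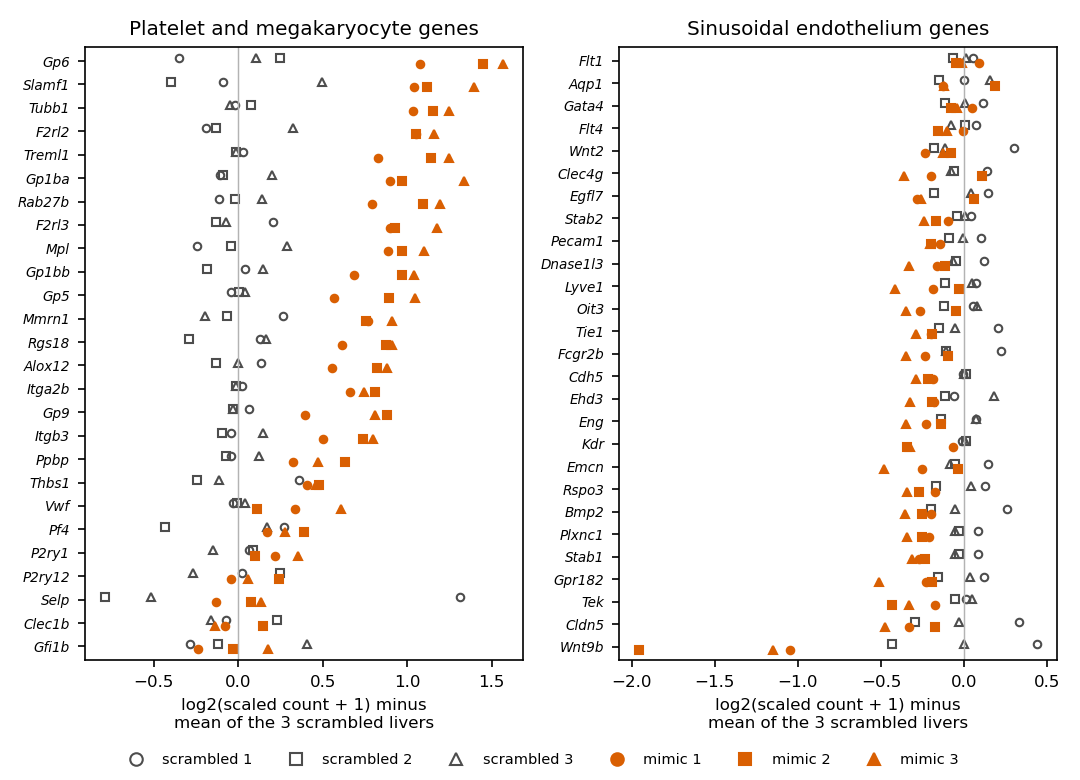
Each listed platelet and megakaryocyte gene (left) and sinusoidal endothelium gene (right); the x axis is log2(scaled count + 1) minus the mean of the 3 scrambled livers, with 1 symbol for each P7 liver. In 21 of 26 genes on the left every filled mimic symbol lies right of every open scrambled symbol, and in 13 of 27 on the right every filled symbol lies left.

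Other blood cell genes did not share 1 direction. The 20 B cell genes had a median of 0.53, with 18 positive and 12 (60.0%) apart and higher, against 6.52% of all genes; the exceptions in sign were Ms4a1 and Cd72. Rag1, the recombinase of developing lymphocytes, was at 21, 43 and 52 against 106, 59 and 107, with the scrambled values spread more than the gap. Vpreb3, of the precursor B cell receptor complex, was at 24, 22 and 34 against 51, 46 and 64, and the B cell coactivator Pou2af1 at 78, 81 and 92 against 161, 124 and 155. These genes are low, and background was 36.5% of Rag1 in scrambled replicate 3. The median was also positive at P5 (0.20) and P14 (0.61). The 22 tested genes of T and natural killer cells, of 27 listed, had a median of -0.31 with 3 apart and lower, against 7.44% of all genes. Those were the killing genes perforin (Prf1, 20, 31 and 24 against 14, 10 and 6), granzyme A (Gzma, 210, 270 and 203 against 161, 171 and 134) and granzyme B (Gzmb, 162, 229 and 116 against 110, 106 and 102). Without scrambled replicate 2, the highest in all 3, the list's median was -0.03.

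Macrophage genes were lower by small amounts in all 25 tested, with a median of -0.13 and 4 apart and lower, against 7.44% of all genes. The haemoglobin scavenger receptor Cd163 was at 265, 225 and 174 against 151, 161 and 120, and the phagosomal metal transporter Slc11a1 at 382, 422 and 299 against 298, 258 and 274. In both, scrambled replicate 3 lay just above the mimic range. With the background removed 2 of the 25 were apart and lower. Red cell precursors had a median of 0.08 and 1 of 29 (3.45%) apart and higher. Neutrophil precursors had a median of -0.01 with 1 of 24 (4.17%) apart each way. Of all genes 6.52% were apart and higher and 7.44% apart and lower. In the red cell list the sums were 13851, 18998 and 22057 in scrambled against 16766, 21899 and 19782 in mimic livers, and scrambled replicate 1 was the lowest of the 6. The red cell median was -0.09 without scrambled replicate 1 and 0.24 without replicate 3. Without replicates 2 and 3 it was 0.40, with 22 of 29 (75.9%) apart and higher against 26.7% of all genes.

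Enzymes that break down amino acids were higher in mimic livers as a group. All 47 were tested, 45 had a positive difference, 24 (51.1%) were apart and higher against 6.52% of all genes, and 0 were called; the median was 0.18. The 2 negative genes were Gpt2 and Prodh. The sums were 33406, 34686 and 34052 in scrambled and 39406, 41971 and 37687 in mimic livers, so the groups were apart with a gap wider than the scrambled range. Leaving out each scrambled replicate gave medians of 0.19 in all 3 cases. Gpt, the alanine aminotransferase that feeds alanine into gluconeogenesis, was at 116, 130 and 83 against 216, 178 and 253. Hal, the histidine lyase, was at 650, 820 and 461 against 1047, 1074 and 1050. Tdo2, which opens the tryptophan ring and was chosen after its values were seen, was at 579, 572 and 320 against 883, 1132 and 821. Scrambled replicate 3 was the lowest of the 6 in these 3 genes. Smaller gaps with tighter values were seen in the leucine pathway enzyme Ivd (924, 915 and 774 against 1144, 1104 and 1083) and the tyrosine aminotransferase Tat (807, 904 and 788 against 1127, 1079 and 988).

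The list for the urea cycle, which disposes of the released nitrogen, had 15 of 16 genes tested and 13 positive. Of these, 7 (46.7%) were apart and higher, against 6.52% of all genes, and the median was 0.12. The list also holds glutamine, glutamate and aspartate enzymes, such as Gls2 and Got1, and amino acid carriers. Its share is therefore not that of the cycle enzymes alone. Cps1, which commits ammonia to the cycle, was at 2095, 2969 and 2219 against 3418, 3225 and 3133. The glutaminase Gls2 was at 727, 800 and 608 against 1050, 1050 and 972, and the cytosolic aspartate aminotransferase Got1 at 610, 631 and 567 against 753, 832 and 737. The limma adjusted p of these 3 were 0.364, 0.361 and 0.364. At the other days both lists leaned slightly the other way, with medians of -0.06 and -0.13 for amino acid breakdown and -0.05 and -0.14 for the urea cycle at P5 and P14. The P7 difference of Cps1 from its P5 and P14 differences did not pass over all genes. In the list of amino acid and unfolded protein stress, 27 genes were tested and 13 were positive, with a median of -0.0017. In that list 1 (3.70%) was apart and higher and 3 (11.1%) apart and lower, against 6.52% and 7.44% of all genes. Among the 3 were Phgdh and Psat1, enzymes of serine synthesis. Phgdh was at 128, 141 and 175 against 67, 107 and 90, and Psat1 at 512, 498 and 608 against 327, 450 and 359. The other was Atf3, at 73, 64 and 49 against 47, 41 and 41.

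In the list of growth hormone and insulin-like growth factor genes, 16 of 20 were positive and 5 (25.0%) apart and higher, against 6.52% of all genes, with a median of 0.14. Igf1, the circulating growth factor made by the liver, was at 1895, 1913 and 1761 against 2514, 2606 and 2465. The growth hormone receptor Ghr was at 1197, 1237 and 1109 against 1466, 1542 and 1379. Its transcription factor Stat5b was at 562, 689 and 575 against 842, 718 and 859, and the prolactin receptor Prlr at 1082, 1118 and 833 against 1418, 1477 and 1343. Igf1, Ghr and Stat5b each had groups apart, with log2 differences of 0.45 (SE 0.12), 0.31 (SE 0.11) and 0.41 (SE 0.12). Their limma adjusted p were 0.330, 0.413 and 0.333.

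Of 37 tested genes for fatty acid oxidation and ketone bodies the median was -0.02, and 5 (13.5%) were apart and lower, against 7.44% of all genes. These 5 are known targets of the fasting receptor PPARα. Vnn1 was at 325, 343 and 355 against 261, 214 and 165, Acot1 at 104, 114 and 97 against 49, 53 and 68, and Angptl4, the inhibitor of lipoprotein lipase, at 505, 408 and 399 against 276, 287 and 290. Acot2 (148, 124 and 109 against 91, 76 and 75) and Cyp4a10 (790, 618 and 709 against 555, 575 and 544) were the other pair; Acot1 and Acot2 are close copies, so their reads may be divided. That theme was named after the values were seen, and the other genes of the list overlapped. Cholesterol synthesis and uptake genes had a median of 0.11 with 24 of 28 positive and 7 (25.0%) apart and higher, against 6.52% of all genes; the median was 0.06 without scrambled replicate 1 and 0.19 without replicate 3. Insig1, the sterol sensor that holds back SREBP, was at 359, 398 and 388 against 516, 682 and 518. In the lipogenesis list the master regulator Srebf1 was at 1205, 1216 and 958 against 1515, 1562 and 1502, while the malic enzyme Me1 was at 219, 173 and 167 against 124, 126 and 127, so members stood on both sides.

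Transporters and detoxifying enzymes also stood on both sides. Of 30 tested genes of bile acid synthesis and transport, 8 were apart and higher and 2 apart and lower (median 0.07), and of 37 tested genes of the cytochrome P450 list, which also holds Por, Nr1i2 and Nr1i3, 8 and 1 (median 0.08), against 6.52% and 7.44% of all genes. With the background removed the bile acid list had 8 apart and higher, 0 apart and lower and a median of 0.12. The organic anion carrier Slco1a4 was at 226, 104 and 72 against 415, 348 and 363, higher by 1.64 in log2 (SE 0.43; adjusted p 0.315 in limma). Cyp2f2, an enzyme of periportal hepatocytes, was at 396, 508 and 373 against 714, 776 and 621, and the related Cyp2d9 at 645, 645 and 684 against 545, 479 and 512. Cyp2b10 and Cyp2c29, induced by the drug receptor CAR, were at 43, 20 and 7 against 50, 46 and 95 and at 61, 22 and 10 against 72, 101 and 41. Background was 86.7% and 87.9% of their values in scrambled replicate 3, so little of those values remains after it is taken off. The iron hormone hepcidin (Hamp) was at 247, 153 and 163 against 35, 98 and 27, -1.99 in log2 (SE 0.57; adjusted p 0.333 in limma). Its groups did not overlap, and both were widely spread; hepcidin also differed by -1.28 at P14 and by 0.14 at P5.

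**Figure D4:**
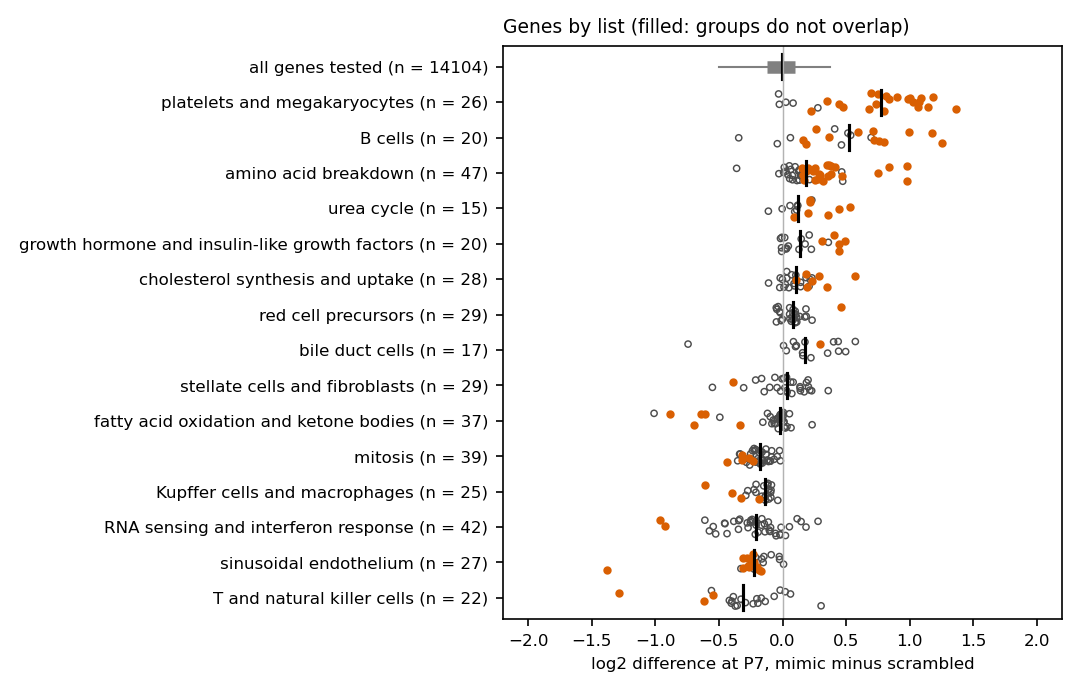
Log2 difference at P7, mimic minus scrambled, for the tested genes of the lists named on the axis, 1 point for each gene. Filled points have groups that do not overlap, and black bars are medians. The top line gives all 14104 genes as their middle 50% (thick) and 90% (thin). The medians of the platelet and B cell lists are 0.78 and 0.53, and those of the sinusoidal endothelium and T and natural killer cell lists -0.23 and -0.31.

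For cell division, the direction depended on which scrambled livers were used. All 39 mitosis genes had a negative difference, with a median of -0.18 and 5 (12.8%) apart and lower, against 7.44% of all genes. The sums were 14600, 20219 and 19617 in scrambled and 15336, 15837 and 17113 in mimic livers, so scrambled replicate 1 lay below every mimic liver and replicates 2 and 3 above. Without scrambled replicate 1 the median was -0.30, with 36 of 39 (92.3%) apart and lower against 13.3% of all genes, and without replicates 2 and 3 it was 0.09. The spindle checkpoint gene Mad2l1 (412, 431 and 418 against 328, 342 and 341) and Cdc20, the activator that ends metaphase (405, 441 and 450 against 348, 286 and 324), were apart in all 3 scrambled livers. The 38 DNA replication genes had a median of 0.01 and 0 apart. Without scrambled replicate 1 their median was -0.13, with 10 (26.3%) apart and lower against 13.3% of all genes. Without replicates 2 and 3 that median was 0.21. Genes of RNA sensing and the interferon response showed the same split: the median of 42 was -0.21, with 6 positive and 2 apart and lower, against 7.44% of all genes. It was -0.35 without scrambled replicate 1, with 21 of 42 (50.0%) apart and lower against 13.3% of all genes, and 0.08 without scrambled replicates 2 and 3. The antiviral genes Mx1 (37, 61 and 68 against 22, 33 and 27) and Oas2 (96, 157 and 141 against 75, 62 and 65) were the 2. Scrambled replicate 1 was the lowest scrambled liver in both.

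Targets of the microRNA family did not stand on 1 side. Of 44 targets named in earlier work 43 were tested; 21 were positive, 3 (6.98%) were apart and higher and 2 (4.65%) apart and lower, against 6.52% and 7.44% of all genes, and 0 were called. The median was -0.01, and the median SE of their differences 0.14. In their longest annotated 3′ untranslated region 38 of the 43 hold the 7-mer TGCTGCT on the sense strand and 19 hold the 8-mer TGCTGCTA, with medians of 0.01 and -0.01. The same search found the 7-mer in 24.5% and the 8-mer in 4.59% of the 13190 tested genes with an annotated 3′ untranslated region. A match is a description of the sequence and not evidence of a site in use.

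The genes whose sites are printed above showed near-equal levels. Cyclin E1 (Ccne1), which starts DNA replication, was at 234, 325 and 362 against 267, 325 and 309, and cyclin D2 (Ccnd2) at 426, 415 and 440 against 444, 392 and 404. The G1 kinase Cdk6 was at 610, 685 and 604 against 664, 586 and 594. The mitotic brake Wee1 was at 224, 252 and 241 against 236, 229 and 252, with equal means, and the checkpoint kinase Chek1 at 142, 211 and 182 against 169, 175 and 191. Bcl2, which blocks apoptosis, was at 129, 98 and 115 against 107, 111 and 96. All 6 overlapped, with log2 differences of -0.01 (SE 0.22) for Ccne1, -0.05 (SE 0.13) for Ccnd2, -0.04 (SE 0.12) for Cdk6, 0.00 (SE 0.11) for Wee1, 0.02 (SE 0.16) for Chek1 and -0.12 (SE 0.18) for Bcl2. Differences within about 1 SE of 0 are not shown to be absent. Cyclins D1 and D3 differed by -0.04 (SE 0.09) and 0.04 (SE 0.10), the phosphatase Cdc25a by -0.11 (SE 0.11) and the insulin receptor Insr, with 3 matches, by 0.18 (SE 0.13). The 2 targets apart and lower were the endothelial receptor Kdr (964, 979 and 976 against 927, 766 and 776) and the Wnt feedback gene Axin2 (180, 188 and 156 against 148, 92 and 142). Kdr is also on the endothelial list. Apart and higher were, among others, the kinase Map2k1 (416, 406 and 419 against 434, 425 and 424) and the cytoskeletal gene Zyx (568, 532 and 559 against 581, 634 and 620).

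Over the transcriptome, the 3231 tested genes with the 7-mer had a median log2 difference of 0.01, with 198 (6.13%) apart and higher and 229 (7.09%) apart and lower. The 9959 genes with an annotated 3′ untranslated region and no 7-mer had a median of -0.01, with 6.40% and 7.79%. The 605 genes with the 8-mer had 8.43% apart and higher and 7.27% apart and lower. Genes with 3 or more matches, 288 in all, had a median of 0.05 and 6.25% and 4.86%. None of the genes with a match was called, and the 1 called gene, Ttn, has none. The level of miR-497a-5p itself in the livers was not analysed here.

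**Figure D5:**
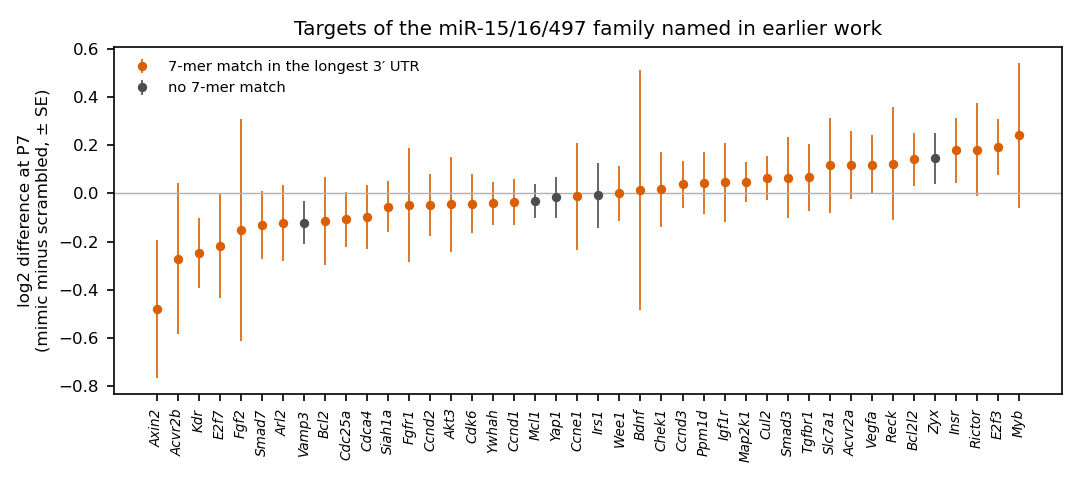
Log2 difference at P7, mimic minus scrambled, with its SE (bars), for tested family targets, ordered by value; orange points have the 7-mer in the longest 3′ untranslated region and grey points do not. The points run through 0, and those of the 6 genes with printed sites lie between -0.12 and 0.02.

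Whether the mimic effect at P7 differed from that of the other days was tested directly. Between P7 and P5, 0 genes had a limma adjusted p under 0.05 (smallest 0.465), and 864 had an unadjusted p under 0.05. Between P7 and P14, 1 gene passed (0.00709%), the cholesterol synthesis enzyme Sqle. Ttn differed by -0.58 at P5 and -1.30 at P14. The 12 lower genes had the same sign in 5 of 12 at P5 and in 10 of 12 at P14. The mimic and scrambled livers of each day are separate animals, so the values of the 3 days share no library.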

How the data were processed

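RNA of 18 livers went into libraries of a stranded kit, per the labels' protocols. Deposited was a whole-number score for each gene and library; judging by the numbers, these are counts that the authors divided by a size factor and rounded. Trimmomatic 0.39, STAR 2.6.1d, Picard 2.21.7, featureCounts 1.6.5, DESeq2 1.26.0 and mm10 (GRCm38) are named, per the submitters' processing notes; their settings, and whether duplicate reads were removed, are not given in the sources used here. Since these are not raw counts, no count model was fitted and read depth is unknown.

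Of 31165 genes, the 14104 (45.3%) whose mean scaled count reached 10 across all livers entered limma 3.58.1 (R 4.3.3) as log2(value + 1): 6 group means, all libraries, eBayes with a mean-variance trend, Benjamini-Hochberg over all genes tested, threshold 0.05. Differences on this scale understate the change of low genes. Groups came from the sample titles. Exonic lengths and 3′ untranslated regions came from GENCODE M21 (31108 gene IDs matched), microRNA sequences from RefSeq. Background per kb was the summed value of 8684 silent genes over their exonic length. The fit had been tested on simulated data first. "Apart" means that the 3 values of 1 group all exceed the 3 of the other.

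Members, the 33 gene lists and the tests were chosen with earlier results of these data known. Named are the genes past the threshold; the 12 of smallest p each way with groups apart; up to 4 members of smallest p in each list; genes called in the P7 libraries alone or with 1 library left out; and a set of family targets, Alb, Afp and muscle genes at 100 or more. Genes outside this rule were chosen after their values were seen, among them Gp6, Pf4, Selp, Clec1b, P2ry12, Gfi1b, Tdo2, Flt1, Gpt2, Prodh, Map2k1, Zyx, Cyp4a10, Alox15 and Ms4a1. Alternatives were another pseudocount (5), filters, scalings, covariates, library weights, the replicate block, background removal and left-out libraries. Python 3.11.15, numpy 2.4.6, pandas 2.3.3 and matplotlib 3.10.9 were used. Some genes that the rule would name are not reported here.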

Additional observations from a re-analysis of the deposited data

Results flagged for a closer look

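Sqle, squalene epoxidase of cholesterol synthesis, was the 1 gene whose mimic effect differed between P7 and P14 by a test of the difference itself. At P7 it was at 487, 515 and 604 in scrambled and at 578, 652 and 501 in mimic livers, overlapping groups with a log2 difference of 0.11 (SE 0.14). At P14 it was at 67, 81 and 75 in scrambled and at 256, 187 and 266 in mimic livers, with a difference of 1.64 (SE 0.14). The P7 effect minus the P14 effect was -1.54 (SE 0.19, limma adjusted p 0.00295). Leaving out each P7 library in turn gave between -1.63 and -1.44, with limma adjusted p of 0.00191 to 0.0175. At P5 the gene was at 650, 516 and 581 against 575, 519 and 584.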

How the results depend on the processing

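The count of genes called at P7, 1 as reported, was 3 with no filter, 0 at a mean of 50 or more, 4 with quantile normalization, 7 in the P7 libraries alone, 0 without a mean-variance trend, 63 with library weights (36 higher, 27 lower), 0 with the Y-linked covariate, 0 with a length slope covariate, 0 with the background removed, 19 without scrambled replicates 2 and 3, and 6 without replicates 1 and 3; the last 2 assume that the lone scrambled liver varies like the other groups. It remained 1 with a pseudocount of 5, a filter on P7 means, TMM scaling and the length trend removed. Leaving out 1 P7 library gave 0 to 13, with 13 without scrambled replicate 1 and 9 without scrambled replicate 2. With 1 P7 library left out, the counts for P7 against P5 ran from 0 to 5 (5 without scrambled replicate 1, 1 without scrambled replicate 2), and for P7 against P14 from 1 to 13 (13 without scrambled replicate 1, 2 without scrambled replicate 2). Without scrambled replicates 2 and 3 these counts were 14 and 9, and without replicates 1 and 3 they were 5 and 6. Why these counts differ was not tested.

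The replicate numbers did not pair the P7 livers: same-numbered livers' deviations correlated at -0.06, -0.09 and 0.07. With the replicate number as a block the counts were 3 (P7), 0 (P7 against P5) and 6 (P7 against P14), and the blocked log2 difference of Ttn was -5.82.

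Of 2749 recomputed differences of 126 genes, 2599 kept their direction and side of the threshold, 61 came to pass it, 10 no longer did, and 79 changed sign or went to 0, in 24 genes. Without scrambled replicates 1 and 3 these were Clec4d at 0.0075, Dpep2 at 0.051, Casq2 at 0.85, Alb at 0.11, Afp at 0.065, Wee1 at -0.077, Chek1 at -0.24, Bcl2 at 0.091, Insr at -0.071, P2ry12 at -0.17, Gfi1b at 0.092 and Cd72 at 0.027. Without scrambled replicates 2 and 3 they were Gm10800 at 0, Gm10801 at 0, Alb at 0.077, Afp at 0.030, Ccne1 at 0.35, Cdk6 at 0.0087, Selp at -1.28, Clec1b at 0.046, Gfi1b at 0.25, Flt1 at -0.045, Gpt2 at 0.29 and Cd72 at 0.33. With TMM scaling they were Alb at 0.041, Ccnd1 at 0.013, Ccnd2 at 0.00092, Ccne1 at 0.037, Cdk6 at 0.0072, Clec1b at 0.024, Gfi1b at 0.018, Gpt2 at 0.021 and Cd72 at 0.0080. With the background removed they were Slco1a1 at 0.17, Bcl2 at 0.014, Clec1b at 0.0098 and Cd72 at 0.014. With quantile normalization they were Ccnd3 at -0.0075, Flt1 at -0.019 and Cd72 at 0.012. With library weights they were Ccnd3 at -0.013, Cdk6 at 0.00029 and Selp at -0.050. With the length trend removed they were Alb at 0.0048 and Flt1 at -0.036. With a length slope covariate they were Alb at 0.017 and Wee1 at -0.0090. With the Y-linked covariate the gene was Ccne1 at 0.034. With 1 P7 library left out at a time, genes that changed sign ran as follows: Clec4d from -1.59 to 0.44, Casq2 from -1.81 to 0.19, Alb from -0.12 to 0.094, Afp from -0.17 to 0.047, Ccnd1 from -0.073 to 0.0053, Ccnd3 from -0.025 to 0.13, Ccne1 from -0.20 to 0.12, Cdk6 from -0.099 to 0.016, Wee1 from -0.045 to 0.039, Chek1 from -0.14 to 0.15, Selp from -0.37 to 0.68, Clec1b from -0.11 to 0.091, P2ry12 from -0.053 to 0.21, Gfi1b from -0.17 to 0.17, Flt1 from -0.032 to 0.037, Gpt2 from -0.19 to 0.14 and Cd72 from -0.23 to 0.18. Background removal shifted the median of all genes to 0.04. Read depth is unknown, so counting error at low genes could not be given.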
